A study of Mus musculus with 12 samples.

Results

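NF-κB subunits and the kinases that release them were followed in cerebral vessels of mice during the hours after a systemic dose of lipopolysaccharide (LPS), the endotoxin of Gram-negative bacteria. The group holds 10 of the 54119 genes with summed counts: the 5 subunit genes Rela, Relb, Rel, Nfkb1, and Nfkb2, the 3 genes of the IκB kinase (IKK) complex Chuk, Ikbkb, and Ikbkg, and the 2 related kinases Ikbke and Map3k8. The genes were taken by name and not by a threshold on their values, and all 10 passed the filter on low counts.

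NF-κB is a family of dimeric transcription factors that wait in the cytoplasm of resting cells. In the canonical arm, IκB proteins hold dimers of p65 (Rela), c-Rel (Rel), and p50 (made from the Nfkb1 precursor) until the IKK complex marks IκB for destruction. In the noncanonical arm, the kinase IKKα (Chuk) drives the trimming of the Nfkb2 precursor to p52, which pairs with RelB (Relb). IKKβ (Ikbkb) is the main IκB kinase of the canonical arm, and NEMO (Ikbkg) is the regulatory subunit of the complex that has no kinase activity. IKKε (Ikbke) acts with TBK1 on interferon regulatory factors, and TPL2 (Map3k8) is held by the Nfkb1 precursor p105 and starts the ERK kinase cascade when IKK frees it. In the endothelium, NF-κB is known for switching on adhesion molecules and chemokines. RNA levels show neither the release of these proteins nor their activity, since both are set after translation.

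The vessels came from wild-type C57BL6 mice 2 to 3 months old, given PBS or LPS at 10 mg/kg into the peritoneum, and were collected 15 or 30 min or 4 h after LPS. There were 4 groups of 3 libraries, and each library pooled the vessels of 1 male and 1 female, so a group stood for 6 mice. The time between the PBS injection and collection is not given in the sources used here. The libraries held 18.3 to 25.9 M fragments assigned to genes.

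Vessel markers were present in every library, and the summed markers of several cell types moved with the groups. Summed endothelial markers (6 genes) ran from 8509 to 8804 CPM (counts relative to library sizes adjusted by TMM factors) in PBS and from 5925 to 5980 at 4 h, with 4 of 6 lower and 1 higher. Summed neutrophil markers (6 genes, 5 tested) ran from 2.25 to 2.71 CPM in PBS and from 183 to 190 at 4 h, with all 5 tested higher, while Ly6g was at 0 in every PBS and 15 min library. Summed monocyte markers (3 genes) ran from 38.5 to 47.5 CPM in PBS, from 68.2 to 77.1 at 30 min, and from 114 to 121 at 4 h. The 3 did not move alike at 30 min. Ly6c2 went from a mean of 38.9 CPM in PBS to 71.4, Plac8 from 0.592 to 0.754, and Ccr2 from 2.99 down to 1.31. Summed choroid plexus markers (3 genes) ran from 10260 to 10689 CPM in PBS and from 17251 to 18142 at 4 h. At 15 min, summed neuron markers (5 genes) were at 480 to 491 CPM against 307 to 319 in PBS, and summed smooth muscle markers (4 genes) at 1488 to 1508 against 2346 to 2382. At 30 min, summed skeletal muscle markers (4 genes) were at 112 to 123 CPM against 4.54 to 6.93 in PBS. The part of these shifts in the results below was not tested, and in pooled tissue a change in the number of cells of a type and a change in RNA per cell cannot be told apart.

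The κB site is the short DNA element that NF-κB dimers bind. RefSeq promoter windows on GRCm38.p6, taken as the 250 bases before a start, were given for 6 of the 10 genes (11 windows). The 10-base κB consensus, searched on both strands, lay in 4 of these windows, against 7.25% of all 32851 promoter windows. By gene these were 2 of the 6, Rel and Nfkb2. All of these windows except that of Rel were alternative starts of Nfkb2, and some overlap, so they do not count as separate genes. The windows of Rela, Chuk, Ikbke, and Ikbkg held no match to the consensus. The promoters of Rel and Rela are shown, leaving out bases of annotated exons. Rel lies at chr11:23770971-23771219 (minus strand), with capitals marking 3 overlapping consensus matches that start 92 bases before the annotated start. Rela lies at chr19:5637291-5637482 (plus strand), with no match and so no capitals.
Rel: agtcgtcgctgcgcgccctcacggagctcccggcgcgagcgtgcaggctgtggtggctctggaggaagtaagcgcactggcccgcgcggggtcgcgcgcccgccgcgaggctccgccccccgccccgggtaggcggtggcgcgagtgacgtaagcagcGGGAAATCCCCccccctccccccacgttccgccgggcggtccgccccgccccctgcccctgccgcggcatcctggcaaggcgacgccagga
Rela: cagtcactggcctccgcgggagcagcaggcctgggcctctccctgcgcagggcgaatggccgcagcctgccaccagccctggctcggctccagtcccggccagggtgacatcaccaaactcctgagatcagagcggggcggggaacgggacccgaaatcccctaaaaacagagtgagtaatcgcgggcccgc
The matches of Nfkb2 lay in annotated exons of chromosome 19, so only the matches themselves are shown, on the plus strand. They lie at chr19:46304698-46304708 (3 overlapping matches), chr19:46304726-46304735, chr19:46305459-46305468, and chr19:46305705-46305714, in this order.
Nfkb2 site a: GGGAATTCCCC
Nfkb2 site b: GGGGCTTTCC
Nfkb2 site c: GGAATGTCCC
Nfkb2 site d: GGGACTTTCC
A match describes letters in a window. It does not show binding, which was not measured here.

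In PBS vessels the members spanned a wide range of levels. Levels of different genes are compared here in TPM, which are scaled for transcript length and library size. Rela (60.8 ± 1.35 TPM, SD, n = 3) and Ikbkb (57.9 ± 3.59) stood at the top, and their libraries overlapped. Chuk (50.6 ± 3.2) and Nfkb1 (45.1 ± 1.86) came next and overlapped too. Map3k8 (18.2 ± 2.58) overlapped with Relb (17.5 ± 0.938), which lay above Nfkb2 (15 ± 0.829). Ikbkg followed at 10.1 ± 1.19 TPM, with Ikbke at 3.84 ± 0.516 and Rel last at 1.5 ± 0.115, each below the one before in every library. Resting vessels thus carried the mRNAs of p65, both IKK kinases, and p105 at the highest levels of the group, and the c-Rel mRNA at the lowest.

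By 4 h that order had changed. Rela was still first (194 ± 7.36 TPM, SD, n = 3), but Map3k8 (148 ± 1.86) now came next, ahead of Nfkb1 (134 ± 3.1). Nfkb2 (109 ± 6.21) and Relb (106 ± 3.03) overlapped and both lay above Ikbkb (48.7 ± 2.09) and Chuk (41.7 ± 0.548). Ikbke (27.8 ± 0.546) and Rel (15.9 ± 0.3) had passed Ikbkg (6.75 ± 2.71), which was last. At 30 min the order was still that of PBS for the first 5 genes, and Rel (7.84 ± 0.492) had already passed Ikbkg (6.92 ± 0.213) and Ikbke (5.19 ± 0.932).

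**Figure D1:**
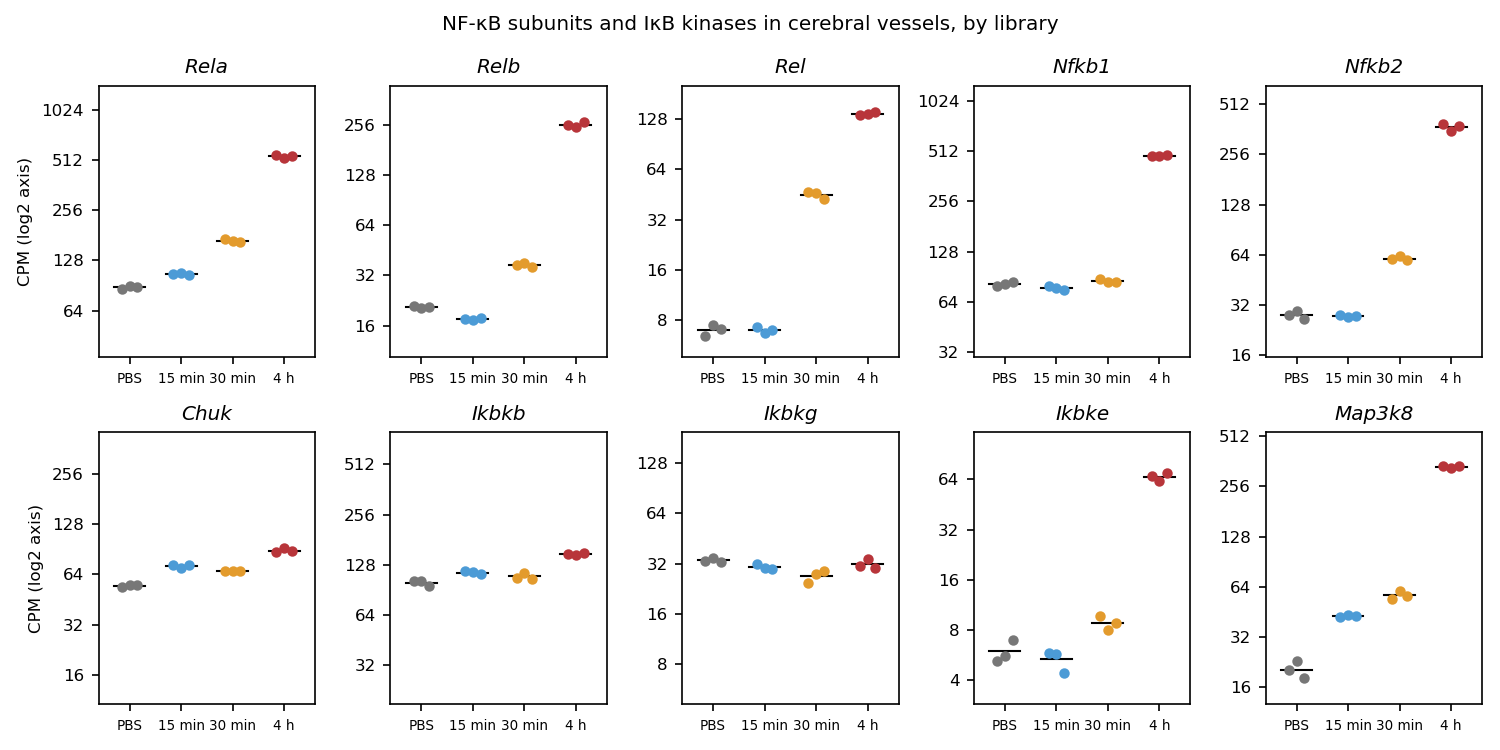
Level of each of the 10 genes in each of the 12 libraries, in CPM on a log2 axis of equal span in every panel (points: libraries; lines: group means). Rel steps up at 30 min and again at 4 h, Nfkb1 stays near 80 CPM until 30 min and lies above 470 at 4 h, and Ikbkg stays between 24.4 and 34.7 CPM throughout.

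The changes were tested per gene against a change of at most 1.5-fold in either direction, in a fit of all genes and all 12 libraries, and a gene counts as risen or fallen where its adjusted p was below 0.05. At 15 min 1 of the 10 members had risen, against 3.31% of all 19150 genes tested. At 30 min 5 of 10 had risen, against 3.78%. At 4 h 8 of 10 had risen, against 19%. None fell at any time in this fit, where 0.872% of all genes fell at 15 min, 0.799% at 30 min, and 13.8% at 4 h. Over the 10 members the median log2 fold change was -0.01, 0.71, and 3.04 in time order, with the median of all genes at 0.00, -0.01, and -0.01. The 3 comparisons share the PBS libraries. Without a fold limit 5 members differed from PBS at 15 min, 9 at 30 min, and 9 at 4 h, against 38.6%, 36.9%, and 68.5% of all genes. The libraries of 6, 9, and 9 members did not overlap with PBS at these times, against 49.3%, 46.7%, and 70.9% of all genes.

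**Figure D2:**
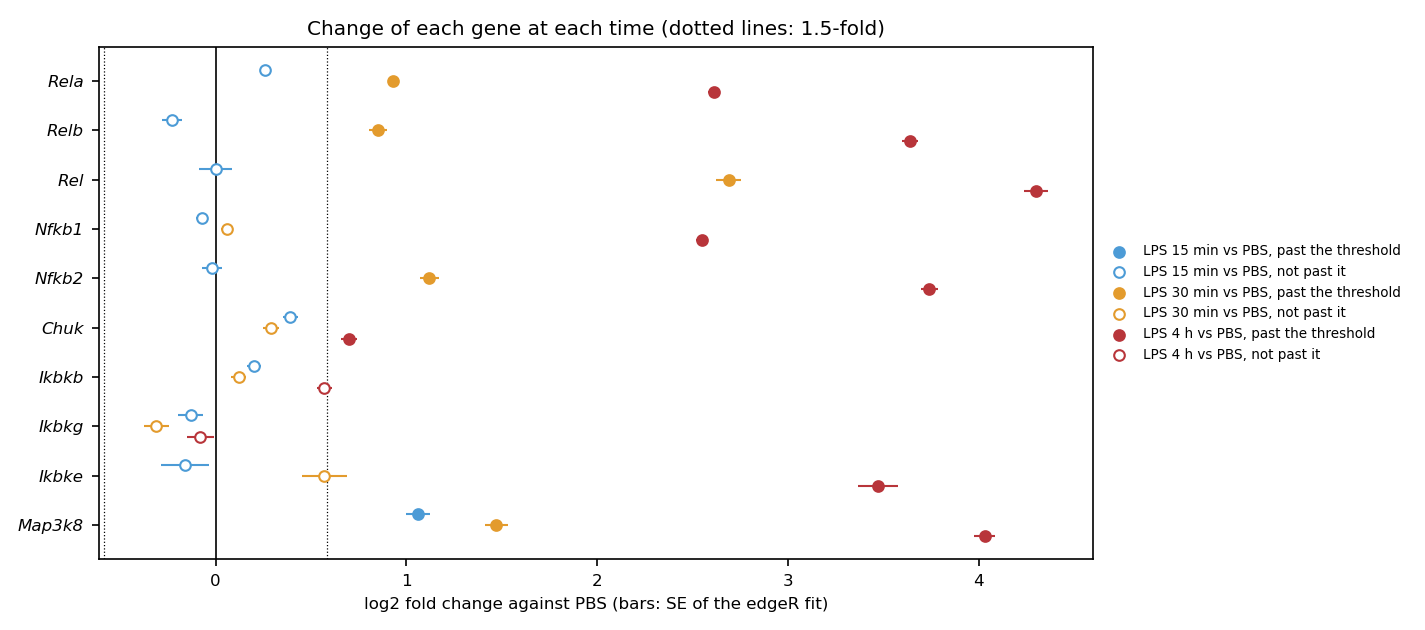
log2 fold change of each gene against PBS at 15 min (blue), 30 min (orange), and 4 h (red), with the SE of the edgeR fit as bars. Filled points passed the test for a change beyond 1.5-fold (dotted lines), and the 5 subunits and both related kinases lie at 2.55 or higher at 4 h while the IKK complex genes lie at 0.70 or lower.

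Rel, which encodes c-Rel and has the lowest resting level, made the largest step of the subunits at 30 min on the log2 scale. The PBS libraries held 6.41, 7.49, and 7.1 CPM, and the 15 min libraries 7.32, 6.71, and 6.98. At 30 min they held 46.7, 46.3, and 42.4 CPM, and at 4 h 136, 137, and 141. The 15 min libraries fell within the range of PBS, and the libraries of each later group lay above all of the group before. On the log2 scale the 15 min group did not depart from PBS (0.00, SE 0.0848, adjusted p = 1). By 30 min Rel had risen by 2.69 (SE 0.066, adjusted p = 4.14e-18), which is 6.44-fold. By 4 h it had risen by 4.30 (SE 0.0628, adjusted p = 3.34e-24), which is 19.7-fold. Leukocytes are known to express c-Rel. At 30 min the summed neutrophil markers were at 3.31 to 5.63 CPM and the monocyte markers at 68.2 to 77.1 (1 of 3 higher). Within the monocyte sum Ccr2 went the other way, from a mean of 2.99 CPM in PBS to 1.31. The 4 perivascular macrophage markers were at 91.5 to 97.5 CPM against 75 to 77.9 in PBS (1 of 4 higher). The part of these cell types in the change of Rel was not tested.

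Rela, the gene of p65 (chr19:5637483-5648130 on GRCm38, plus strand), stood at a higher base and made a smaller step at 30 min on the log2 scale. The PBS libraries held 86.8, 89.5, and 88.5 CPM, and the 15 min libraries 106, 107, and 104. At 30 min they held 172, 168, and 165 CPM, and at 4 h 548, 528, and 542. No group overlapped with another. The early log2 difference of 0.26 (SE 0.0296) lay within 1.5-fold (adjusted p = 1) but differed from 0 in the test without a fold limit (adjusted p = 1.93e-07). Rela had risen by 0.93 (SE 0.029, adjusted p = 2.78e-10) 30 min after LPS. The rise reached 2.61, or 6.1-fold, by 4 h (SE 0.0288, adjusted p = 6.46e-26). The step from 15 to 30 min, 0.67 (SE 0.0287, adjusted p = 0.0216), lay just past the limit and lost its call under 5 of 9 other settings and on leaving out 1 library of 3 single ones, LPS 30 min replicate 1 (adjusted p = 0.127), LPS 15 min replicate 1 (0.0547), or LPS 15 min replicate 3 (0.102).

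Nfkb1, the gene of p105 and p50 (chr3:135584655-135691547, minus strand), stood at its resting level through 30 min and rose between 30 min and 4 h. The PBS libraries held 79.8, 81.9, and 84.4 CPM, the 15 min libraries 80.1, 78, and 75.9, and the 30 min libraries 87.4, 84.5, and 84. The 4 h libraries held 481, 477, and 483 CPM. Both early groups overlapped with PBS and the 4 h group stood far above them. Early log2 differences were -0.07 (SE 0.0322) and 0.06 (SE 0.0324), followed by a rise of 2.55 by 4 h (SE 0.0307, adjusted p = 3.82e-25). Neither early value differed from 0 in the test without a fold limit (adjusted p = 0.0866 and 0.185).

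Both genes of the noncanonical pair had risen at 30 min, as had Rel and Rela. Nfkb2, the gene of p100 and p52 (chr19:46304320-46312385, plus strand), held 27.9, 29.4, and 26.3 CPM in PBS and 27.9, 27.1, and 27.4 at 15 min. It held 60.1, 62.8, and 59.3 CPM at 30 min and 390, 352, and 377 at 4 h. The 15 min libraries lay within the range of PBS and the later groups above it. Nfkb2 stood at a log2 difference of -0.02 at 15 min (SE 0.0528) and had risen by 1.12 in the 30 min group (SE 0.0486, adjusted p = 1.04e-09). Its rise by 4 h was 3.74 (SE 0.0453, adjusted p = 1.12e-25), or 13.4-fold.

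Relb, the gene of RelB (chr7:19606217-19629438, minus strand), held 20.9, 20.3, and 20.6 CPM in PBS and 17.5, 17.3, and 17.9 at 15 min. It held 36.8, 38.2, and 36 CPM at 30 min and 254, 248, and 265 at 4 h. All 15 min libraries lay below PBS, and all later libraries above it. Its log2 difference at 15 min, -0.23 (SE 0.0523), lay within 1.5-fold (adjusted p = 1) and was below 0 without a fold limit (adjusted p = 0.00131). Relb had risen by 0.85 in the 30 min group (SE 0.048, adjusted p = 6.29e-05). It had risen by 3.64, or 12.4-fold, in the 4 h group (SE 0.0433, adjusted p = 9.37e-26). The 30 min call was lost with library size as the only scaling (log2 fold change 0.68, adjusted p = 0.145) and in the normalized gene table (0.76, adjusted p = 0.11).

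The reads of Nfkb2 are not its own throughout, since the libraries do not mark strand. Its exons share 299 bases with Psd, which codes for an exchange factor of ARF6, and 531 with the noncoding gene AC114539.1, both on the other strand. Psd itself rose by 15 min (log2 fold change 0.97, SE 0.0443, adjusted p = 1.06e-07). It stood 0.63 above PBS at 30 min (SE 0.0454, adjusted p = 0.649) and 0.86 above at 4 h (SE 0.0468, adjusted p = 2.52e-06). Psd held 45.9 ± 1.09 CPM (SD, n = 3) in PBS, 89.9 ± 2.26 at 15 min, and 71.1 ± 4.39 at 30 min. Nfkb2 held less in each of these groups, 27.8 ± 1.55, 27.4 ± 0.43, and 60.7 ± 1.82 CPM. At 4 h Psd held 83.5 ± 0.567 CPM and AC114539.1 17.1 ± 2.27, against 373 ± 19.3 for Nfkb2. The part of Psd in the counts of Nfkb2 was not tested.

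Expressed as a share of the difference in CPM between 4 h and PBS, the subunits had gone different distances by 30 min. Rel had covered 29.1% ± 1.82 (SD, n = 3), Rela 17.7% ± 0.871, Nfkb2 9.53% ± 0.527, Relb 6.98% ± 0.462, and Nfkb1 0.823% ± 0.46. The 30 min libraries of these 5 genes did not overlap in this share. The means of PBS and 4 h were held fixed, so these SDs leave out the spread of those groups. The shares also depend on the scale. In TPM Rel went from 1.5 in PBS to 7.84 at 30 min and 15.9 at 4 h, and Nfkb1 from 45.1 to 41.1 and 134. The steps from 15 to 30 min had passed the test for 4 of 10, Rela, Relb, Rel, and Nfkb2, against 2.69% of all genes. At 15 min the share of Rela was 3.9% ± 0.344, and that of the other subunits lay between -1.28% and 0.00573%. Nfkb1 and Nfkb2, the 2 precursor genes, therefore differed in their timing, with Nfkb2 up 2.18-fold at 30 min and Nfkb1 at 1.04-fold. All 5 steps from 30 min to 4 h passed the test, as did 7 of the 10 members against 16.9% of all genes, and those of the subunits ran from 1.61 (Rel, SE 0.0506) to 2.79 (Relb, SE 0.0411).

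**Figure D3:**
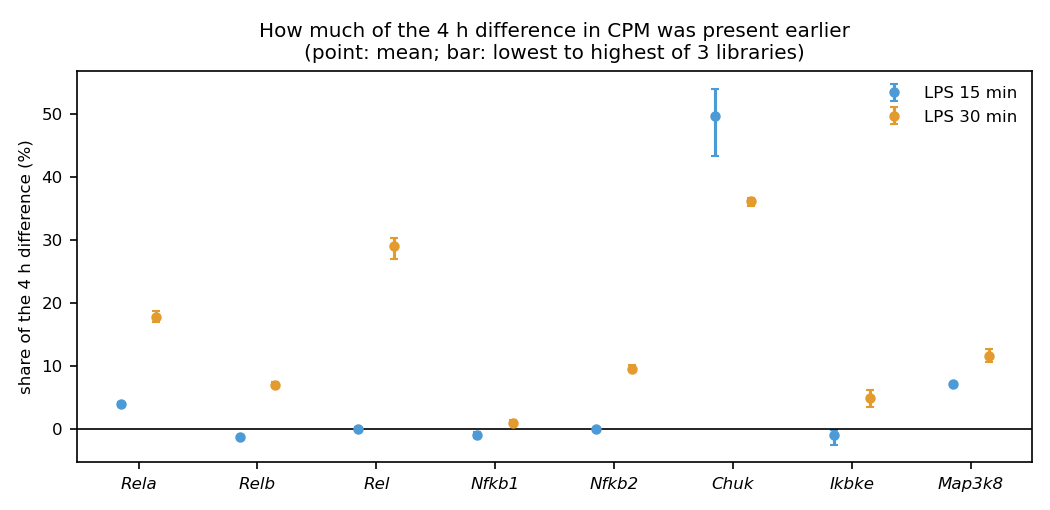
Share of the 4 h difference from PBS, in CPM, that was present at 15 min (blue) and 30 min (orange), for the 8 genes that had risen at 4 h (point: mean of 3 libraries; bar: lowest to highest). Chuk is highest at both times (49.7% and 36.2%) on a small total difference, which was 0.00 in log2 with library size as the only scaling. Rel follows at 30 min with 29.1%, and Nfkb1 is at 0.823%.

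Together the 5 subunits held 140 ± 0.582 TPM (SD, n = 3) in PBS, 148 ± 6.99 at 15 min, 194 ± 2.01 at 30 min, and 558 ± 16.2 at 4 h. The size of this rise depends on the scale. In CPM the sum went from 226 ± 3.51 in PBS to 236 ± 3.24, 396 ± 8.94, and 1787 ± 38.7 in time order. Within the summed TPM the noncanonical pair gained. Relb and Nfkb2 made up 23.7%, 23.1%, and 23% of the subunit TPM in the PBS libraries and 19.5%, 19.5%, and 20.7% at 15 min. They made up 25.3%, 26.2%, and 26% at 30 min and 38.6%, 38.4%, and 38.3% at 4 h, and no group overlapped with PBS. The 4 groups differed in this share (exact permutation test over 369600 assignments of the libraries, p = 6.49e-05, the smallest it can give, adjusted over 2 tests 0.00013). Against PBS alone each difference had the smallest p that 3 against 3 libraries allow, 0.1 (exact permutation test, two-sided), and the difference at 4 h was 15.2 percentage points. Over the same time the share of Rela went from 43.5% ± 1.01 (SD, n = 3) in PBS to 48.9% ± 1.13 at 30 min and 34.7% ± 0.526 at 4 h. The share of Nfkb1 went from 32.2% ± 1.25 to 21.2% ± 0.944 at 30 min and 24% ± 0.409 at 4 h, and that of Rel from 1.07% ± 0.0792 to 4.05% ± 0.217 and 2.84% ± 0.0326.

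**Figure D4:**
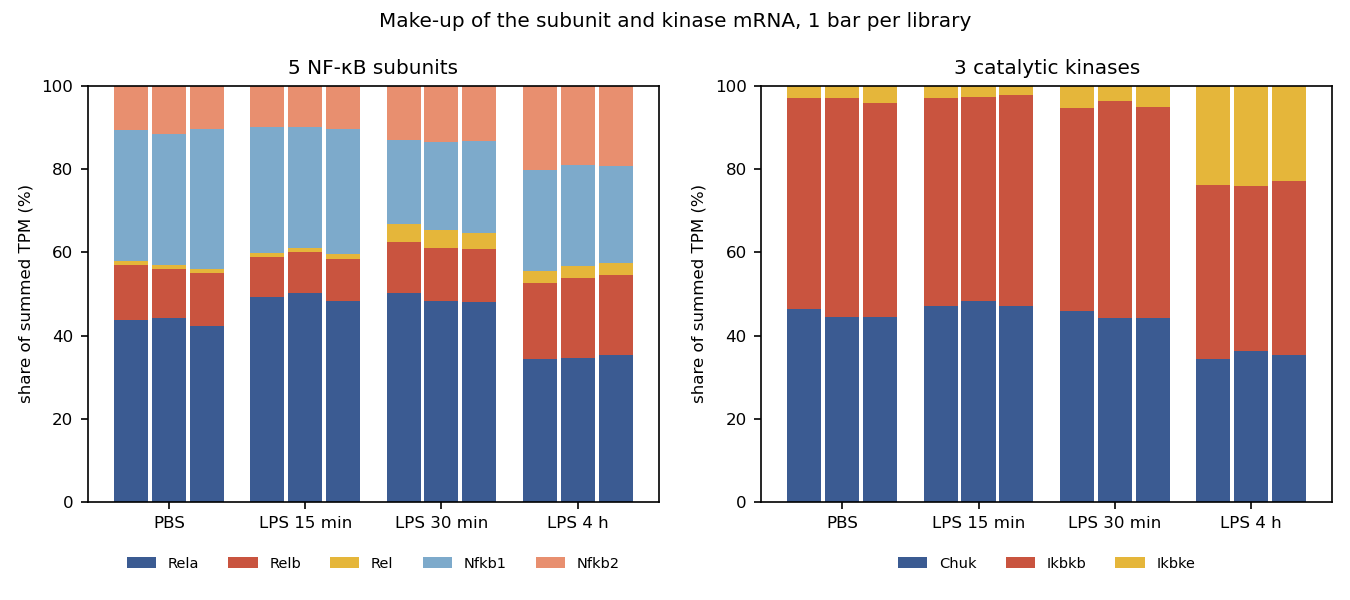
Make-up of the subunit mRNA (left) and of the mRNA of the 3 kinases Chuk, Ikbkb, and Ikbke (right), as shares of summed TPM in percent, with 1 bar per library. Relb and Nfkb2 together grow from 23.2% in PBS to 38.4% at 4 h on average, and Ikbke from 3.44% to 23.5% of the kinases.

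The 3 genes of the IKK complex moved little beside the subunits. Chuk, the gene of IKKα (chr19:44073335-44107480, minus strand), held 53.8, 55, and 55 CPM in PBS and 72.3, 69.5, and 73.1 at 15 min. It held 67.1, 67.1, and 66.7 CPM at 30 min and 86.9, 91.8, and 87.7 at 4 h. Every LPS library lay above PBS on this scale. Chuk stood 0.39 above PBS on the log2 scale at 15 min (SE 0.0394) and 0.29 at 30 min (SE 0.04), both within 1.5-fold (adjusted p = 1) and above 0 without a fold limit (adjusted p = 3.14e-08 and 3.09e-06). At 4 h the difference of 0.70 (SE 0.0408, adjusted p = 0.00364) passed the limit. That call depends on scaling, since the value was 0.00 with library size alone, and in TPM Chuk went from 50.6 ± 3.2 (SD, n = 3) in PBS to 41.7 ± 0.548 at 4 h. It was also lost in the normalized gene table (0.60, adjusted p = 0.83), with a transcript length offset (0.60, adjusted p = 0.377), and with no filter on low counts (0.65, adjusted p = 0.113).

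Ikbkb, the gene of IKKβ (chr8:22659212-22706589, minus strand), held 102, 103, and 95.7 CPM in PBS and 117, 116, and 112 at 15 min. It held 107, 114, and 105 CPM at 30 min and 149, 147, and 151 at 4 h. Every LPS library lay above PBS. Its log2 differences were 0.20 (SE 0.0368), 0.12 (SE 0.0373), and 0.57 (SE 0.0379) in time order. None passed the limit of 1.5-fold (adjusted p = 1, 1, and 0.668), and all 3 differed from 0 without a limit (adjusted p = 0.000143, 0.0166, and 4.03e-12). With library size alone it was -0.05 at 30 min and -0.13 at 4 h.

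Ikbkg, the gene of NEMO (chrX:74393290-74453854, plus strand), held 33, 34.7, and 32.8 CPM in PBS and 32, 30.1, and 29.9 at 15 min. It held 24.4, 27.6, and 29.1 CPM at 30 min and 31, 34.1, and 30.3 at 4 h. The 30 min libraries lay below all others, and those of 4 h overlapped with PBS. In time order the log2 differences from PBS were -0.13 (SE 0.0647), -0.31 (SE 0.0664), and -0.08 (SE 0.069), none past 1.5-fold (adjusted p = 1). The 30 min value differed from 0 without a fold limit (adjusted p = 0.000635). With library size alone the 4 h value was -0.78 and passed the test (adjusted p = 0.0024). Ikbkg shares 418 exon bases with G6pdx on the other strand, which codes for the first enzyme of the pentose phosphate pathway and stood at -0.47 at 4 h (SE 0.119, adjusted p = 1).

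Map3k8, the gene of TPL2 on chromosome 18, was the only member that had risen by 15 min. The PBS libraries held 20.2, 23.1, and 18.1 CPM, and the 15 min libraries 42.5, 43.2, and 42.6. At 30 min they held 53.9, 60.3, and 56.6 CPM, and at 4 h 338, 331, and 338. No group overlapped with another. The 15 min rise was 1.06 on the log2 scale (SE 0.061, adjusted p = 6.17e-07), or 2.08-fold. The rise over PBS was 1.47 in the 30 min group (SE 0.06, adjusted p = 5.15e-12) and 4.03, or 16.4-fold, in the 4 h group (SE 0.0555, adjusted p = 1.09e-24). Between 15 and 30 min the gene gained 0.41 (SE 0.0547), which lay within 1.5-fold (adjusted p = 1), and between 30 min and 4 h 2.56 (SE 0.0499, adjusted p = 6.47e-21). Rel and Map3k8 thus started at different times and were the members with the largest log2 fold changes at 4 h.

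Ikbke, the gene of IKKε (chr1:131254343-131279606, minus strand), rose late. The PBS libraries held 5.21, 5.63, and 7.02 CPM and the 15 min libraries 5.83, 5.73, and 4.42. At 30 min they held 9.67, 8, and 8.85 CPM, and at 4 h 66.5, 62.3, and 69.4. The 15 min libraries overlapped with PBS, and the later groups did not. The early log2 differences of -0.16 (SE 0.126) and 0.57 (SE 0.119) did not pass 1.5-fold (adjusted p = 1). By 4 h Ikbke had risen by 3.47, or 11.1-fold (SE 0.105, adjusted p = 9.5e-18). The 30 min value differed from 0 without a fold limit (adjusted p = 0.000552). Its antisense partners Gm28914 and Gm28913 held at most 2 and 7.95 estimated fragments in any library, against 117 to 1016 for Ikbke.

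The rise of Ikbke changed the make-up of the kinase mRNA. Chuk, Ikbkb, and Ikbke together held 112 ± 5.92 TPM (SD, n = 3) in PBS, 144 ± 4.29 at 15 min, 111 ± 4.47 at 30 min, and 118 ± 1.5 at 4 h. The course of the sum depends on the scale, since in CPM it went from 161 ± 2.73 in PBS to 192 ± 2.93, 184 ± 4.09, and 304 ± 3.69 in time order. Ikbke took 3.06%, 3.06%, and 4.2% of this sum in PBS, 2.9%, 2.6%, and 2.07% at 15 min, and 5.25%, 3.63%, and 5.17% at 30 min. It took 23.6%, 24%, and 22.9% at 4 h, above every other library. The 4 groups differed (exact permutation test over 369600 assignments, p = 0.000714, adjusted over 2 tests 0.000714), and the difference of 4 h from PBS was 20.1 percentage points (exact permutation test, two-sided, p = 0.1, the smallest possible).

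The transcript estimates show which isoforms carried these sums. Rel has 1 annotated transcript. Rela-201, the main coding transcript of Rela, made up 86.6% ± 2.09 (SD, n = 3) of the gene's TPM in PBS and 88.7% ± 4.06 at 4 h. For Nfkb2, the coding transcript Nfkb2-206 made up 9.05% ± 6.95 of the gene in PBS, 21.4% ± 3.53 at 30 min, and 5.17% ± 0.249 at 4 h, while Nfkb2-201 went from 58.4% ± 20.3 to 49.1% ± 8.8 and 73.2% ± 0.811. For Chuk, the coding transcript Chuk-202 went from 5.3% ± 0.551 in PBS to 14.1% ± 1.48 at 4 h. For Ikbke, the retained intron transcript Ikbke-203 went from 29.2% ± 7.74 in PBS to 5.76% ± 0.41 at 4 h. The coding transcript Ikbke-202 was at 0 in all libraries but those of 4 h, where it made up 10.3% to 30.8%. Both rest on few fragments. Ikbke-203 held a mean of 12.6 estimated fragments in PBS. At 4 h Ikbke-202 held 28.4, against 377 for Ikbke-201 and 400 for Ikbke-204. The shares of all these transcripts are given without a test.

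Not every isoform can be resolved. In the PBS libraries the coding transcripts Ikbke-201 and Ikbke-204 ranged from 12.8% to 56.6% and from 0% to 50.9% of Ikbke. The 2 coding transcripts Relb-202 and Relb-203 exchanged nearly all reads between libraries of the same group, with Relb-203 between 0% and 79.3% of the gene in PBS. In Ikbkg, the short noncoding transcript Ikbkg-213 took 42.5% of the gene's TPM in 1 library of 4 h and 0% in others, and the TPM of Ikbkg in the 4 h libraries was 9.85, 5.56, and 4.85 where its CPM was 31, 34.1, and 30.3.

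Genes with the most similar course were sought for each of the 8 members that passed the test against PBS. Likeness was the root mean square difference over the 12 libraries in log2(CPM + 1), each gene set to its own PBS mean, among 12783 genes with a mean of at least 5 CPM. Rela was closest to Atf4 (0.0759), a transcription factor of the stress response, Il1r1 (0.0953), the signaling receptor of interleukin 1, and Ifitm1 (0.129). Nfkb1 had close matches in Txnrd1 (0.0685), a thioredoxin reductase, Tor1aip2 (0.0689), and Tbrg1 (0.071). Chuk had the closest ones of all, Cnot7 (0.0522), a deadenylase of the CCR4-NOT complex, Dlgap4 (0.0627), and Slc38a6 (0.0632), on a course with small changes. Relb was closest to Sdc4 (0.106), Tuba1c (0.111), and Hdc (0.13), the enzyme that makes histamine.

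The other 4 members each had closest partners at 0.11 or more. Rel was closest to Gadd45b (0.135), a stress response gene, Gm38357 (0.209), and Vcam1 (0.272), the adhesion molecule for leukocytes. Vcam1 stood at log2 fold changes of 0.30, 2.92, and 4.35 in time order. Nfkb2 was closest to AI506816 (0.11), Ripk2 (0.127), the kinase of the NOD receptors, and Sbno2 (0.162). Ikbke was closest to Mapk6 (0.128), Myd88 (0.144), the adaptor of Toll-like receptors, and Hbegf (0.146). Map3k8 was closest to Pmaip1 (0.192), Trib1 (0.227), and Klf6 (0.324), a zinc finger factor of early responses.

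The wider pathway was followed in 49 genes of 6 lists, all of which were tested. At 15 min 5 had risen and none had fallen, at 30 min 7 had risen and none had fallen, and at 4 h 26 had risen and 4 had fallen. Of all genes 3.31%, 3.78%, and 19% had risen at these times, and 13.8% had fallen at 4 h. With library size as the only scaling the counts at 15 and 30 min were the same, and at 4 h 21 rose and 13 fell, against 9.96% and 44.7% of all genes. The median log2 fold change of the 49 was 0.01, 0.08, and 0.75 at the 3 times.

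Most of the early rises among the 49 were in the list of IκB proteins and feedback, which holds many inhibitors of the pathway. Of its 10 genes, 4 had risen at 15 min, 5 at 30 min, and 8 at 4 h, against 3.31%, 3.78%, and 19% of all genes. At 15 min these were Nfkbiz (log2 fold change 2.14, SE 0.0459), which codes for the nuclear IκBζ, Nfkbid (1.64, SE 0.116), Tnfaip3 (1.44, SE 0.0462), the gene of the ubiquitin editor A20, and Nfkbia (1.23, SE 0.0235), the gene of IκBα. Nfkbia went from 209 ± 5.35 CPM (SD, n = 3) in PBS to 491 ± 6.3 at 15 min, when no subunit had passed the test, and to 2546 ± 51.9 at 4 h. At 30 min Nfkbiz was at 5.31 (SE 0.0426) and Tnfaip3 at 5.11 (SE 0.0401), above the 2.69 of Rel, the highest member. At 4 h Tnfaip3 reached 6.23 (SE 0.0406), Nfkbiz 5.29 (SE 0.0429), Tnip1, a partner of A20, 4.76 (SE 0.0476), and Nfkbie, the gene of IκBε, 4.59 (SE 0.0955).

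Of 7 genes of the noncanonical arm, 1 had risen at 15 min, 2 at 30 min, and 5 at 4 h, against 3.31%, 3.78%, and 19% of all genes. Tnfrsf12a, the receptor of TWEAK, rose at all 3 times (1.35, SE 0.0627, 1.89, SE 0.0614, and 2.92, SE 0.0604). The ubiquitin ligase gene Birc3 rose from 30 min (1.24, SE 0.0599) and reached 4.77 at 4 h (SE 0.0527), with Cd40, a receptor of this arm, at 4.25 (SE 0.0581) and Birc2 at 3.74 (SE 0.0318). Map3k14, the gene of the kinase NIK, was the other of the 5 (1.55, SE 0.104) and is named here after its value was seen.

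Of 14 genes upstream in the canonical arm, none passed the test at 15 or 30 min, and 6 rose and 1 fell at 4 h. Of all genes 3.31% rose at 15 min and 3.78% at 30 min, so no early call among 14 genes is near that share. At 4 h 19% of all genes rose and 13.8% fell. The largest values were those of Rnf31, a part of the linear ubiquitin ligase (1.85, SE 0.0394), the kinase gene Ripk1 (1.84, SE 0.0514), and the adaptors Traf2 (1.58, SE 0.061) and Traf6 (0.97, SE 0.0712). Tab1, the gene that fell, stood at -0.85 (SE 0.0817, adjusted p = 0.00144). The balance of this list depends on scaling, since with library size alone 3 rose (Rnf31, Ripk1, and Traf2) and 5 fell (Tab1, Irak1, Irak4, Rbck1, and Sharpin), and the calls of Traf6, Tab2, and Ube2n were lost.

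The partners of the related kinases did not pass the test before 4 h. In lists of 7 and 5 genes this is near the share of all genes that rose, 3.31% at 15 min and 3.78% at 30 min. Of 7 partners of Ikbke, 4 had risen at 4 h: Irf7, an interferon regulatory factor (4.73, SE 0.0365), Tbk1, the closest relative of Ikbke (2.67, SE 0.0435), and the adaptors Azi2 (2.51, SE 0.0523) and Tank (1.76, SE 0.0653). Of 5 partners of Map3k8, 2 rose and 1 fell at 4 h, when 19% of all genes rose and 13.8% fell. Map2k1, the gene of the substrate MEK1, rose by 2.00 (SE 0.0492), and Tnip2, which binds TPL2 and p105, by 1.18 (SE 0.0539), a call lost with library size alone (0.48, adjusted p = 1). Mapk3, the gene of ERK1, fell by 2.00 (SE 0.0402). With library size alone 1 of the 5 rose and 2 fell. Among the nuclear coactivators and kinases of p65, Prkaca (from 74.1 ± 1.27 to 37.2 ± 1.99 CPM, SD, n = 3) and Rps6ka5 (-0.89, SE 0.12) fell.

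**Figure D5:**
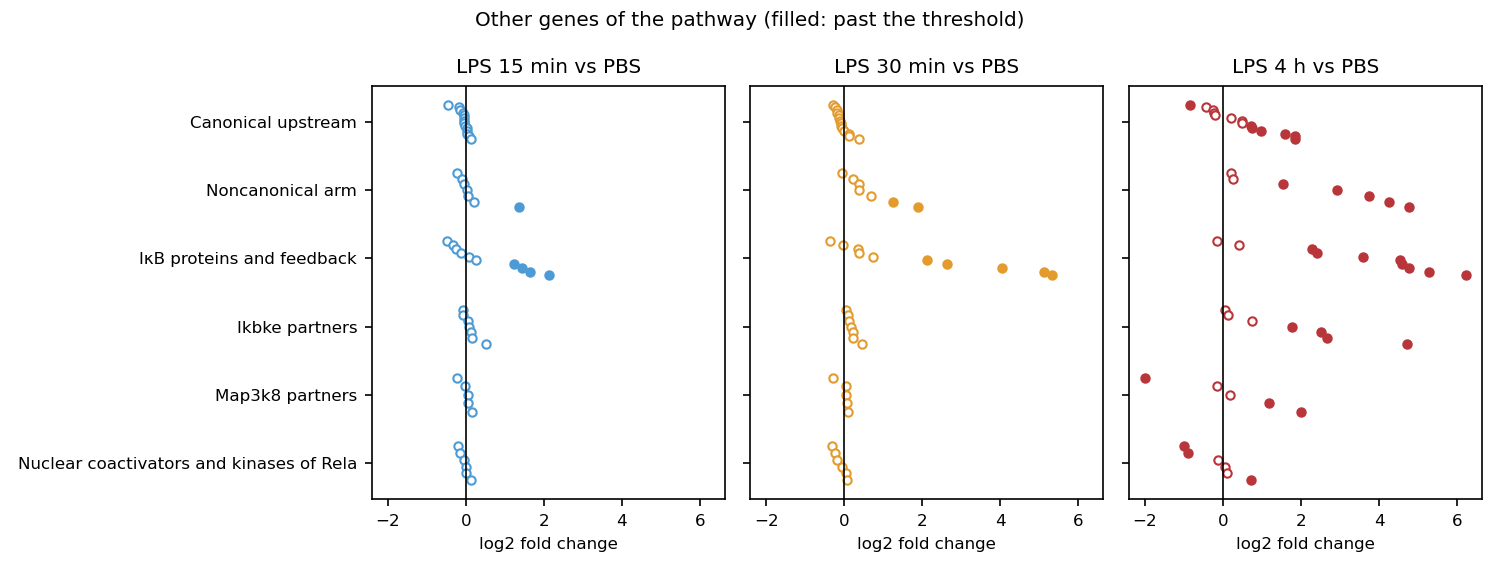
log2 fold change against PBS of the 49 other genes of the pathway at the 3 times, by list (filled points: past the test for a change beyond 1.5-fold; open points: not past it). The filled points at 15 and 30 min lie only in the lists of the noncanonical arm and of IκB proteins and feedback, and at 4 h 26 of 49 lie to the right and 4 to the left.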

How the data were processed

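RNA of cerebral vessels was sequenced by the authors after SMART-Seq v4 and Nextera XT preparation, which does not mark strand. The deposited estimated counts and TPM per transcript came from Salmon 1.2.1 (processing notes of the submitters, GRCm38.p6), and the authors also deposited a gene table of normalized signal, counts divided by DESeq2 size factors. Identifiers without their version matched 139852 of 140948 transcripts to GENCODE M21 (the rest held 0.482% to 0.85% of fragments), summed to genes, and rounded. Columns of the gene table were assigned by library number, and 12 of 12 correlated best with the library of their number over 16548 genes.

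Genes passing filterByExpr (minimum count 10, total 15, share 0.7; 19150 genes) were fitted in edgeR 4.0.16 (R 4.3.3) with TMM factors, 1 quasi-likelihood fit of all 12 libraries and no covariates, and tested with glmTreat against log2(1.5), which is 0.58, with Benjamini-Hochberg adjustment over all genes at 0.05. SE is the log2 fold change divided by the root of the quasi-likelihood F. CPM are TMM scaled. The fit was tested on simulated counts with few changed genes, as many raised as lowered. The simulation therefore does not address the scaling at 4 h. Alternatives were DESeq2 1.42.0, limma 3.58.1 on the gene table with 1 added, other scalings, filters, blocks, and leaving out each library. P-values set a difference against the spread between pools of mice within groups, and depth bounds only counting error. An effect of LPS and any other difference between the groups cannot be told apart by them. The labels give no batch or date. The common biological coefficient of variation was 0.0524.

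The members, lists, and tests were chosen with earlier results of these data known. Named from the lists were genes past the test, up to the 4 with the largest change per list and time, and for each member past the test its 3 closest genes. Promoters came from RefSeq tables (GRCm38.p6), and 4 members had no entry. The result of 1 gene of the coactivator list is not reported here.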

Additional observations from a re-analysis of the deposited data

Results flagged for a closer look

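The effect of LPS differed between times for several members, by a test of the difference itself in the same edgeR fit, which is the contrast of the LPS groups with each other. Between 15 and 30 min the effect grew by a log2 fold change of 2.68 for Rel, 1.15 for Nfkb2, 1.07 for Relb, and 0.67 for Rela, and in each case all 3 libraries of 30 min lay above those of 15 min. The value of Rela is the one that does not hold under other settings. Between 30 min and 4 h it grew by 2.90 for Ikbke, 2.79 for Relb, 2.62 for Nfkb2, 2.56 for Map3k8, 2.49 for Nfkb1, 1.68 for Rela, and 1.61 for Rel, again with no overlap of libraries. Between 30 min and 15 min 4 of 10 members were called, against 2.69% of all genes called higher, and between 4 h and 30 min 7 of 10, against 16.9%.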

How the results depend on the processing

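The 50 values of the 10 members were recomputed under 9 other settings and without each library of the groups compared. Of 450 values under other settings 413 kept direction and side of the threshold, 17 newly passed it, 10 no longer passed, and 10 turned sign. The test with no fold limit is 1 of these settings. It can only add calls and gave most of the 17. Chuk at 4 h lost its call with library size alone but is counted among those that turned sign. Of 300 values without 1 library 297 kept direction and side of the threshold. The other 3 no longer passed, all of Rela between 30 and 15 min (0.65 to 0.68). Members called without 1 library numbered 1, 5, and 8 against PBS in time order, 3 to 4 between 30 and 15 min, and 7 between 4 h and 30 min. With no fold limit 5 members were called at 15 min, 9 at 30 min, and 8 between 30 and 15 min. Of all 19150 genes 7393, 7066, and 7153 were called in these comparisons. With library size alone these values turned sign: Nfkb1 at 30 min (-0.11) and against 15 min (-0.01), Ikbkb at 30 min (-0.05), at 4 h (-0.13), and from 30 min to 4 h (-0.08), Chuk at 4 h (0.00) and from 30 min (-0.13), and Ikbkg from 30 min to 4 h (-0.30). Ikbkg at 4 h turned to 0.23 in limma and 0.26 with a length offset. The cause was not tested, apart from the median of all genes, which library size alone moved by -0.17 at 30 min and -0.71 at 4 h. Relative to it Chuk stood at 0.71 and Ikbkb at 0.58 at 4 h. With this scaling 1907 genes were called higher and 8555 lower at 4 h, against 3636 and 2637. Calls over all genes against PBS numbered 800, 877, and 6273 in time order, in limma 406, 531, and 5183, and with no fold limit 7393, 7066, and 13124. Library numbers did not pair the libraries (r from -0.049 to 0.068 in 18 comparisons), and the replicate block changed no call of a member, with 1, 5, and 8 called against PBS, 4 between 30 and 15 min, and 7 between 4 h and 30 min. The shares of Relb with Nfkb2 and of Ikbke moved by 13.7 and 18 points on counts not scaled for length, and by 14.5 and 26.5 points on coding transcripts alone.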
